A study of Homo sapiens with 12 samples.

Results

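Messenger RNAs of cholesterol synthesis, sterol uptake and efflux, and of the sterol sensor that drives them through SREBP transcription factors were followed in HEK 293T cells after knockdown of SIDT2. The 33 genes were taken by symbol from a list drawn up by function. All 33 were present, each under 1 of the 60443 identifiers that carried a symbol in a table of 85298. All 33 also passed the filter on low counts, which left 26366 genes for testing. They comprise 7 genes of early synthesis (ACAT2 to FDPS), 12 of late synthesis (FDFT1 to DHCR7), 7 of SREBP control and 7 of sterol transport, efflux and storage.

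HEK 293T is an established human embryonic kidney line that is easily transduced and grows in serum, which brings lipoprotein cholesterol to the cells. SIDT2 is a membrane protein of lysosomes known for carrying RNA into them. Cells in medium with 10% heat-inactivated serum received lentivirus that carried a scramble hairpin or a hairpin directed at SIDT2, of which there were 2 (shRNA-B, shRNA-D). Each group gave 4 libraries of polyadenylated RNA, harvested at 72 h, and the design asks which transcripts depend on SIDT2. All groups had been transduced, and no untransduced cells were analysed here. Replicate numbers 1 to 4 recur in every group. The submitters describe biological replicates without saying what a shared number means or whether cultures or viral stocks were separate. A p-value here therefore covers library-to-library spread, which may be technical.

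As background, cells build cholesterol from acetyl-CoA through mevalonate and isoprenoid phosphates to squalene, lanosterol and finally cholesterol. When membranes of the endoplasmic reticulum are poor in sterol, SCAP escorts SREBP precursors to the Golgi, where the site-1 and site-2 proteases release the active factors, which raise the genes of synthesis and uptake. When sterol is plentiful, INSIG proteins hold SCAP back, and oxysterols activate the LXR receptors, which raise the efflux pumps ABCA1 and ABCG1 and the ligase MYLIP that destroys lipoprotein receptors. INSIG1 is itself an SREBP target, so its message is often read beside those of synthesis.

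Library totals lay between 68737402 and 102644699 estimated counts. SIDT2 held 20.1 ± 1.42 CPM in scramble (SD, n = 4), fell to 6.85 ± 1.04 under shRNA-B and to 6.95 ± 1 under shRNA-D, and every knockdown library lay below every scramble library. Levels are given as CPM, counts scaled by TMM to a common library total, and are compared within a gene. Of 5 genes typical of HEK293-like cells, 4 exceeded 1 CPM on average, with LIN28B at 109.9 CPM and LHX1 at 0.755. Leukocyte (4 markers), hepatocyte (4) and squamous markers (3) summed to at most 1.92, 0.387 and 0.0584 CPM in any library, and KRT5 was at 0 in 11 of 12 libraries. The 5 fibroblast markers summed to 14.6 to 35.8 CPM through FBN1, while COL1A2, COL3A1, LUM and DCN averaged under 1 CPM.

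No member passed the test between either hairpin and scramble when the groups were compared without regard to replicate number. Of the 33 genes, 0 were called with shRNA-B (of tested genes 0.247% were higher and 0.63% lower, 0.876% in all), 0 with shRNA-D (0.0721%, 0.197% and 0.269%) and 0 for the mean of both hairpins (0.125%, 0.106% and 0.231%) in edgeR's quasi-likelihood test at a Benjamini-Hochberg adjusted p under 0.05. At an unadjusted p under 0.05 the counts were 6, 2 and 1. DESeq2 called 1 member lower with each hairpin, MVK with shRNA-B (adjusted p = 0.00284) and LBR with shRNA-D (adjusted p = 0.0113). The shares of all tested genes at the unadjusted threshold and in DESeq2 were not computed, so these counts have no background beside them. The replicate numbers, in contrast, separated many members.

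Between the numbers, 27 of 33 members differed in edgeR's quasi-likelihood F-test of the number terms, against 47.2% of all tested genes. The share called was higher among well-expressed genes: among the 10459 genes averaging 10 CPM or more the share was 65.9%, and 24 of the 29 members above that floor were called. By role, 5 of 7 early enzymes, 10 of 12 late enzymes, 6 of 7 control genes and 6 of 7 transport genes passed. The median ratio between the highest and the lowest number was 1.36 over the members and 1.45 over all tested genes, and above 10 CPM 1.34 and 1.28. Fits with a number left out hold fewer libraries, and their share of all tested genes was not computed. In them the count of members was 16 without the libraries of number 1, 19 without number 4, 25 without number 3 and 26 without number 2. With all 12 libraries, the 6 that did not pass were ACAT2, MVK, FDFT1, EBP, the site-1 protease gene MBTPS1 and SOAT1.

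**Figure D1:**
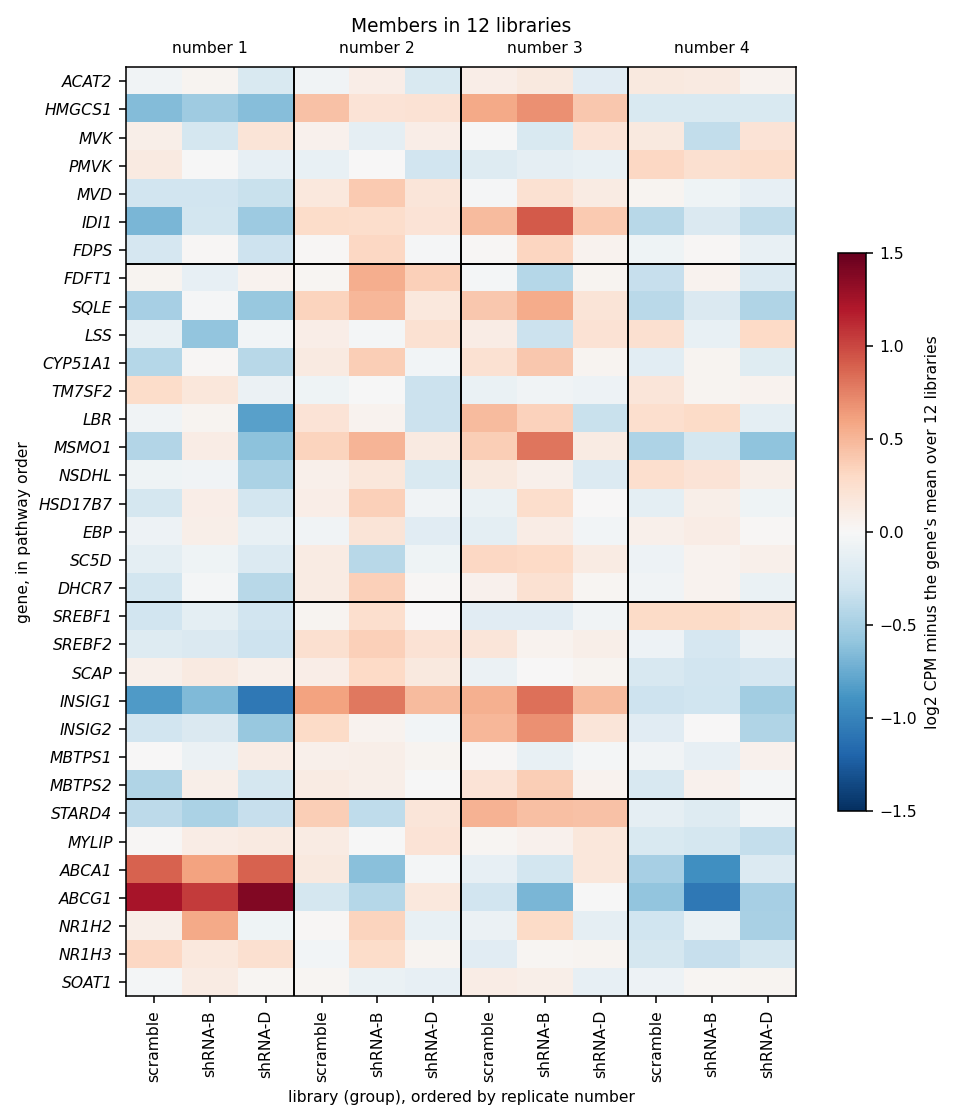
Each cell shows log2 CPM of a gene in a library minus that gene's mean over the 12 libraries, with libraries ordered by replicate number and horizontal lines between the roles. INSIG1, HMGCS1, IDI1, SQLE and MSMO1 are lower in numbers 1 and 4 than in 2 and 3 within each of the 3 groups, while ABCA1 and ABCG1 are high in number 1.

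INSIG1, the sterol sensor's anchor in the endoplasmic reticulum, had the smallest adjusted p of the members between numbers. It stood at 99.6, 274, 260.4 and 145 CPM in scramble libraries 1 to 4, 114, 312, 320.4 and 147 with shRNA-B and 85.8, 250.5, 251 and 125 with shRNA-D. In every group numbers 2 and 3 were the high libraries, and the lowest of them (250.5) lay above the highest library of numbers 1 and 4 (147). The means over the 3 libraries of a number were 99.8, 279, 277 and 139 CPM for numbers 1 to 4, a 2.8-fold range (edgeR adjusted p = 9.97e-09). Its relative INSIG2 held 25.3, 37.6, 43.5 and 27.4 CPM in scramble libraries 1 to 4, 26.5, 31.9, 49.3 and 30.9 with shRNA-B and 20.8, 29.97, 34.95 and 22.5 with shRNA-D. Number 1 was lowest and number 3 highest in each group, with a 1.75-fold range (edgeR adjusted p = 1.97e-05).

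SREBF2, which encodes the SREBP that mainly drives cholesterol genes, varied less. Its libraries held 121, 163, 157 and 131 CPM in scramble libraries 1 to 4, 119, 177, 144 and 116 with shRNA-B and 112, 160.4, 147 and 129.5 with shRNA-D. Number 2 was highest in all 3 groups, and the range over numbers was 1.42-fold (edgeR adjusted p = 0.000189). SREBF1, whose product leans towards fatty acid genes, held 17, 21.4, 18.5 and 25.3 CPM in scramble libraries 1 to 4, 18.8, 24.7, 18.5 and 25.3 with shRNA-B and 16.99, 20.9, 19.96 and 24.4 with shRNA-D, and number 4 was highest in each group. Its range was 1.42-fold (edgeR adjusted p = 0.000305). SCAP, the escort, spanned 77.6 to 116 CPM over the 12 libraries, lowest in number 4 and highest in number 2 in each group. The site-2 protease gene MBTPS2 spanned 54.04 to 95.3 CPM with number 3 highest in each group, and MBTPS1 129.9 to 153 CPM without passing.

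Short stretches of the promoters of SREBF2, INSIG1, HMGCS1 and LSS are shown to describe their sequence. RefSeq promoters (GRCh38.p14, 250 bases before to 50 after the gene start) were matched for 29 of the 33 members. The core of the sterol regulatory element, searched as TCACNCCAC on both strands, was found in 1 of the 29, SREBF2, and in 1.15% of 27305 promoters. A shorter core, CACNCCAC, which is contained in the longer motif and was added after the search for that motif, was found in 4 of the 29, INSIG1, ABCA1, SC5D and SREBF2, and in 5.74% of all promoters. The NF-Y box CCAAT, whose factor is known to act beside SREBP, was found in 17 of the 29 and in 35.7% of promoters, the Sp1 box GGGCGG in 24 and in 44.6%, and the E-box CACGTG in 5 and in 7.43%. The windows below are 30 bases long and are read 5′ to 3′ on the strand of the gene, with the matched motif in capitals. A CCAAT box on the other strand reads ATTGG, and the shorter core in INSIG1 is likewise read from the other strand.
SREBF2, sterol regulatory element core, chr22:41832962-41832991, plus strand: tgacgcgccaTCACCCCACgcaccgcttcg
SREBF2, NF-Y box, chr22:41832987-41833016, plus strand: cttcgctcgcccATTGGctgagatgagcct
INSIG1, shorter core, chr7:155297659-155297688, plus strand: gcgggccggcgGTGGCGTGtgcgcacgtca
INSIG1, NF-Y box, chr7:155297696-155297725, plus strand: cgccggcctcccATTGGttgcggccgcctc
HMGCS1, NF-Y box, chr5:43313495-43313524, minus strand: ctaccggccgcgATTGGctgtgggagccac
LSS, NF-Y box, chr21:46228907-46228936, minus strand: cgcggcgctctgATTGGttgcgtgggcgtc
These matches describe letters in the window and do not show binding. SREBF2, INSIG1, HMGCS1 and LSS carry an NF-Y box and passed between numbers, whereas MVK, EBP and SOAT1 carry one and did not pass. IDI1 and CYP51A1, which passed, had no match to the NF-Y box or to either core. Whether the motifs go with the differences between numbers was not tested.

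Among the early enzymes, HMGCS1, which condenses acetyl units into HMG-CoA, held 88.7, 189, 207 and 119 CPM in scramble libraries 1 to 4, 96.3, 161, 226 and 119 with shRNA-B and 89.3, 162, 185 and 119 with shRNA-D. Number 1 was lowest and number 3 highest in every group, and number 4 lay at 119 CPM on average, below both 2 and 3. The range over numbers was 2.25-fold (edgeR adjusted p = 8.02e-07). IDI1, the isomerase that readies isoprenoid units, held 97.97, 191, 218 and 118 CPM in scramble libraries 1 to 4, 130.0, 188, 297 and 135 with shRNA-B and 107, 180.5, 206 and 121 with shRNA-D. Its order was that of HMGCS1, with a 2.14-fold range (edgeR adjusted p = 2.73e-06), and the shRNA-B library of number 3 was the highest of all 12.

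The decarboxylase gene MVD had means of 21.6, 31.7, 28.9 and 25.8 CPM in numbers 1 to 4 (edgeR adjusted p = 0.000362), with number 1 lowest and number 2 highest in each group. The phosphomevalonate kinase gene PMVK went otherwise, with means of 14.4, 13.1, 12.9 and 17.3 CPM and number 4 highest in each group (edgeR adjusted p = 0.00255). FDPS, which makes farnesyl diphosphate, held 149.6, 180.3, 179.8 and 169 CPM in scramble libraries 1 to 4, 180.0, 220.3, 221 and 179.8 with shRNA-B and 143, 176, 183 and 164 with shRNA-D. Number 1 gave the lowest library in scramble and shRNA-D and tied with number 4 within 1 CPM in shRNA-B, and the range over numbers was 1.24-fold (edgeR adjusted p = 0.00368).

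The remaining early genes did not pass between numbers. ACAT2, the cytosolic thiolase at the start of the path, held 111, 111, 123 and 128 CPM in scramble libraries 1 to 4, 118, 123, 127 and 126 with shRNA-B and 98.5, 98.4, 103 and 119.7 with shRNA-D. The lowest libraries were those of numbers 1 and 2 (edgeR adjusted p = 0.0621). MVK, the mevalonate kinase, held 16.7, 16.4, 15.6 and 17.4 CPM in scramble libraries 1 to 4, 13.04, 14.3, 13.4 and 12.1 with shRNA-B and 17.9, 16.8, 18.1 and 18.1 with shRNA-D. Its number means, 15.9, 15.8, 15.7 and 15.9 CPM, lay within a 1.01-fold range, and all 4 shRNA-B libraries were below the other 8.

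Of the late enzymes, the squalene epoxidase gene SQLE held 141, 251, 264 and 151 CPM in scramble libraries 1 to 4, 197, 282, 292 and 171 with shRNA-B and 134, 221, 228 and 146 with shRNA-D. Numbers 2 and 3 were the high libraries of every group, and number 3 was the highest in each. The range was 1.68-fold (edgeR adjusted p = 3.69e-06). MSMO1, which removes methyl groups from sterols, held 58.9, 101.05, 103 and 57.9 CPM in scramble libraries 1 to 4, 86.7, 114, 139.96 and 66.5 with shRNA-B and 52.1, 87.6, 87.1 and 52.6 with shRNA-D. Numbers 2 and 3 were again above 1 and 4 within each group, with a 1.84-fold range (edgeR adjusted p = 4.76e-06). CYP51A1, the lanosterol demethylase, held 126, 187, 199 and 152 CPM in scramble libraries 1 to 4, 171, 219, 225 and 175 with shRNA-B and 127, 165, 175 and 149.9 with shRNA-D. Number 1 was lowest and number 3 highest in each group, over a 1.42-fold range (edgeR adjusted p = 0.000196).

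DHCR7, the reductase of the last step, held 94.2, 125, 120.0 and 110.5 CPM in scramble libraries 1 to 4, 112, 146, 133 and 118 with shRNA-B and 85.4, 116, 117 and 107 with shRNA-D. Number 1 was lowest in each group. LSS, the cyclase that forms lanosterol, held 58.3, 67.2, 67.9 and 74.1 CPM in scramble libraries 1 to 4, 41.6, 61.7, 50.02 and 58.02 with shRNA-B and 60.9, 73.7, 72.7 and 77.1 with shRNA-D. Here too number 1 was lowest in each group, but the highest library was number 4 in scramble and shRNA-D and number 2 in shRNA-B. NSDHL, a sterol dehydrogenase, held 21.4, 23.7, 24.9 and 26.8 CPM in scramble libraries 1 to 4, 21.6, 25.2, 23.6 and 25.9 with shRNA-B and 16.1, 19.2, 19.5 and 23.9 with shRNA-D, with number 1 lowest and number 4 highest in each group. HSD17B7, a sterol ketoreductase, held 19.8, 25.4, 22.1 and 21.4 CPM in scramble libraries 1 to 4, 25.4, 30.4, 28.4 and 25.3 with shRNA-B and 19.5, 22.9, 23.8 and 22.6 with shRNA-D. Its number 2 library was the highest in scramble and shRNA-B, and number 3 in shRNA-D.

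Of the remaining late genes, LBR, a sterol reductase that also anchors the nuclear lamina, held 285, 343, 414 and 354 CPM in scramble libraries 1 to 4, 305, 308, 378 and 364 with shRNA-B and 169, 238, 235 and 268 with shRNA-D. Number 1 was lowest in each group. Its partner in that step, TM7SF2, held 24.9, 19.7, 19.2 and 23.3 CPM in scramble libraries 1 to 4, 23.1, 20.6, 19.8 and 21.2 with shRNA-B and 19.4, 16.5, 19.5 and 21.3 with shRNA-D, with a range over numbers of 1.19-fold (edgeR adjusted p = 0.0472). EBP, the sterol isomerase, held 59.03, 60.1, 56.1 and 65.7 CPM in scramble libraries 1 to 4, 66.2, 70.96, 67.2 and 66.9 with shRNA-B and 57.6, 55.1, 60.2 and 63.2 with shRNA-D and did not pass between numbers. The desaturase gene SC5D spanned 69.7 to 115 CPM (edgeR adjusted p = 0.0483). FDFT1, the squalene synthase gene, was at only 1.84 to 3.61 CPM under its identifier. Identifiers without a symbol held 2.80% to 3.26% of the counts of a library, and whether they hold reads of FDFT1 was not tested.

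The efflux pumps ran in another direction. ABCG1, which hands cholesterol to lipoprotein particles, held 12.1, 4.27, 4.199 and 3.395 CPM in scramble libraries 1 to 4, 10.6, 3.799, 3.18 and 2.44 with shRNA-B and 13.4, 5.73, 5.12 and 3.64 with shRNA-D. Number 1 was highest and number 4 lowest in every group, with a 3.82-fold range (edgeR adjusted p = 5.22e-08). ABCA1, which loads cholesterol onto apolipoproteins, held 7.74, 4.64, 3.85 and 2.99 CPM in scramble libraries 1 to 4, 6.38, 2.72, 3.46 and 2.21 with shRNA-B and 7.77, 4.13, 4.72 and 3.65 with shRNA-D. Number 1 was again highest and number 4 lowest in every group, over a 2.5-fold range (edgeR adjusted p = 1.48e-05). In number 1 low INSIG1 and HMGCS1 thus stood beside high pumps, whereas in number 4 these SREBP targets lay below numbers 2 and 3 and both pumps were at their lowest.

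Of the LXR receptor genes, NR1H2 (LXR beta) held 23.04, 21.8, 20.3 and 17.5 CPM in scramble libraries 1 to 4, 31.96, 27.2, 26.3 and 20.2 with shRNA-B and 20.6, 20.03, 19.7 and 15.4 with shRNA-D. The order was that of the pumps, number 1 highest and number 4 lowest in each group, but over a 1.41-fold range (edgeR adjusted p = 0.000456). NR1H3 (LXR alpha) had number means of 10.1, 9.17, 8.39 and 6.98 CPM (edgeR adjusted p = 0.00343). MYLIP held 19.2, 20.6, 19.3 and 16.1 CPM in scramble libraries 1 to 4, 20.3, 18.9, 19.7 and 15.8 with shRNA-B and 20.7, 21.7, 21.2 and 14.8 with shRNA-D, and number 4 was lowest in each group (edgeR adjusted p = 0.00174). STARD4, a carrier of sterols between membranes, had number means of 27.6, 38.9, 50.7 and 33.7 CPM, lowest in number 1 and highest in number 3 in each group as for HMGCS1 (edgeR adjusted p = 0.00121). SOAT1, which esterifies cholesterol for storage, stayed within 65.3 to 77.8 CPM.

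The members not listed by library are given by their group means in CPM. In scramble, shRNA-B and shRNA-D, PMVK averaged 14.8, 14.6 and 13.8 CPM and MVD 26.3, 28.4 and 26.2 CPM. Among late enzymes, FDFT1 averaged 2.35, 2.57 and 2.59 CPM and SC5D 96.6, 92.05 and 91.8 CPM. For the control genes the means were 92.4, 98.1 and 95.4 CPM for SCAP, 142, 136 and 146 CPM for MBTPS1 and 70.4, 82.2 and 70.9 CPM for MBTPS2. For transport and storage they were 40.2, 34.1 and 38.8 CPM for STARD4, 8.43, 8.83 and 8.73 CPM for NR1H3 and 71.9, 73.2 and 69.3 CPM for SOAT1. None of these 10 genes was called in a hairpin comparison, with or without the block.

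**Figure D2:**
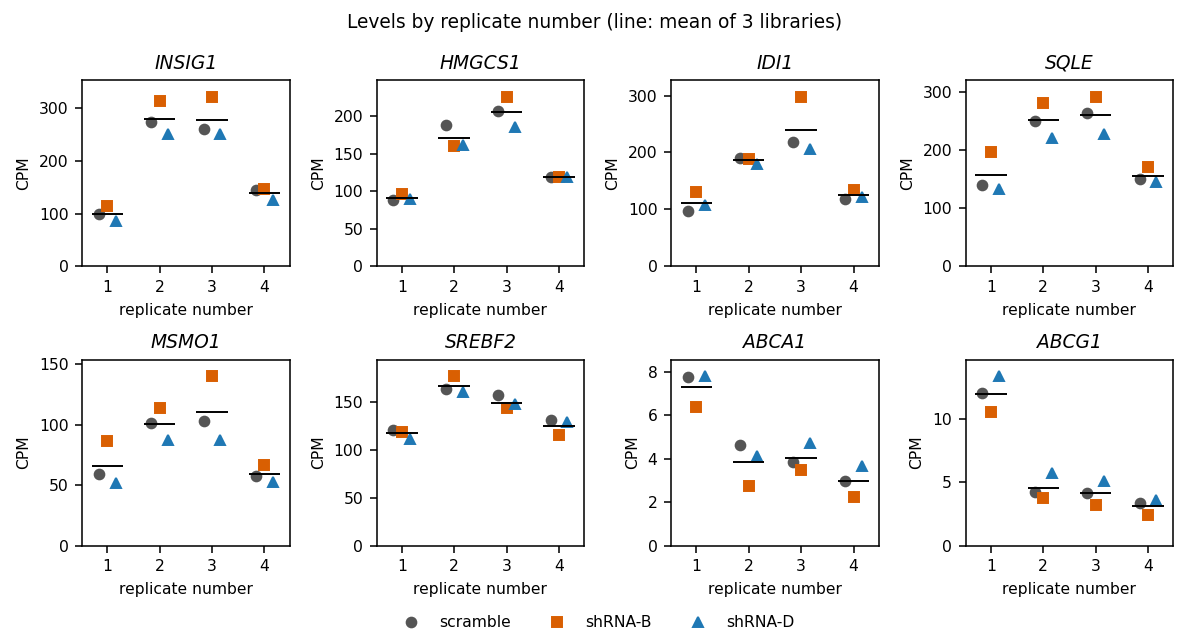
CPM of 8 members in each library against replicate number, with a symbol for each group and a line at the mean of the 3 libraries of a number; each vertical axis starts at 0. The number means of INSIG1 are 99.8, 279, 277 and 139 CPM and those of ABCG1 12.02, 4.601, 4.17 and 3.16 CPM for numbers 1 to 4.

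Counted over the 33 members, number 1 was lowest in all 3 groups for 11 genes, HMGCS1, MVD, IDI1, LSS, CYP51A1, LBR, NSDHL, DHCR7, INSIG1, INSIG2 and STARD4, against 12.6% of tested genes. Number 3 was highest in all 3 groups for 8 (7.38% of tested genes) and number 2 for 3 (6.33%). Neither number was lowest throughout for any member, against 4.51% and 3.49%. Number 4 was lowest for 6 (11.9%) and highest for 3, PMVK, NSDHL and SREBF1 (11.1%), and number 1 was highest for 3, ABCA1, ABCG1 and NR1H2 (10.8%). The libraries of a number also differed in other ways. The number of identifiers with at least 1 count was 45468 to 46157 in number 1, 41542 to 43839 in number 2, 41745 to 41857 in number 3 and 43444 to 45084 in number 4, and the HEK293-like markers summed to 118 to 168.5, 170.2 to 215, 221 to 239.7 and 278 to 287 CPM. Totals were 82312311 to 95051513, 85089404 to 89916332, 68737402 to 83650964 and 80882299 to 102644699 estimated counts. The part of these differences in the values of the members was not tested.

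Because same-numbered libraries deviated together, less clearly so for numbers 2 and 3, the hairpins were also compared within numbers, with the replicate number as a block. This changed the calls, and the blocked values are therefore given for each gene below. In that model 7 members were higher with shRNA-B (4.04% of tested genes) and 4 lower (5.54%), 11 in all (9.58%). With shRNA-D 0 were higher (1.05%) and 3 lower (2.26%; 3.3% in all), and for the mean of both hairpins 0 were higher (1.62%) and 1, LBR, lower (3.45%; 5.07% in all). Above 10 CPM the shares of all genes were 8.75% and 8.76% with shRNA-B and 1.95% and 5.06% with shRNA-D. The median blocked log2 change of the members was 0.065 with shRNA-B and -0.038 with shRNA-D, beside -0.003 and -0.007 over all tested genes. Both comparisons use the same scramble libraries.

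With shRNA-B, the genes that rose in the blocked model were 1 early enzyme, FDPS, 5 late enzymes, SQLE, CYP51A1, MSMO1, HSD17B7 and DHCR7, and the receptor gene NR1H2. Those that fell were MVK, LSS, ABCA1 and ABCG1. Each of the 11 kept its direction in 4 of 4 numbered pairs. The blocked fit that picked them uses the same pairs, so this is not separate evidence. The share of all tested genes with such agreement was not computed, here or for the pair counts below. The largest rise was that of MSMO1, from 80.3 ± 25.4 to 102 ± 32.1 CPM (SD, n = 4), a log2 change of 0.35 ± 0.071 (SE, edgeR adjusted p = 0.00765, and 0.925 without the block). NR1H2 rose from 20.7 ± 2.37 to 26.4 ± 4.85 CPM, by 0.34 ± 0.059 (edgeR adjusted p = 0.00253, without the block 0.532). HSD17B7 changed by 0.30 ± 0.059 (edgeR adjusted p = 0.00547, without the block 0.395). The groups of HSD17B7 and of NR1H2 overlapped, by libraries of different numbers.

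The other rises were smaller. CYP51A1 changed by 0.26 ± 0.059 (edgeR adjusted p = 0.0125), FDPS by 0.24 ± 0.054 (0.0144), SQLE by 0.25 ± 0.064 (0.0287) and DHCR7 by 0.19 ± 0.054 (0.0485). Without the block these adjusted p values were 0.832, 0.625, 0.958 and 0.889. FDPS, CYP51A1, HSD17B7 and IDI1 have pseudogenes named after them in RefSeq, and estimated counts can move between such copies.

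Among the falls with shRNA-B, MVK went from 16.5 ± 0.752 to 13.2 ± 0.9 CPM, and all 4 shRNA-B libraries lay below all scramble libraries. Its blocked change was -0.32 ± 0.067 (edgeR adjusted p = 0.00779, without the block 0.173). It was the single member without overlap below scramble, against 2.66% of tested genes, and EBP the single one above (60.2 ± 4.01 and 67.8 ± 2.15 CPM), against 2.29%. EBP itself did not pass (edgeR adjusted p = 0.0849 with the block). LSS went from 66.9 ± 6.51 to 52.8 ± 8.92 CPM, a blocked change of -0.35 ± 0.062 (edgeR adjusted p = 0.00313, without the block 0.435). ABCA1 changed by -0.41 ± 0.11 (edgeR adjusted p = 0.033) and ABCG1 by -0.30 ± 0.086 (0.0415), against 0.945 and 0.988 without the block. MVK and LSS thus went against the other called enzymes of the path.

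Some central members did not pass with shRNA-B even within numbers. HMGCS1 changed by 0.0035 ± 0.067 (95% interval -0.14 to 0.15), with shRNA-B above scramble in 3 of 4 pairs. IDI1 changed by 0.26 ± 0.077 (edgeR adjusted p = 0.0523) and INSIG1 by 0.18 ± 0.056 (0.069), the latter higher in 4 of 4 pairs. SREBF2 changed by -0.054 ± 0.060 (95% interval -0.18 to 0.075), SREBF1 by 0.089 ± 0.062 (-0.045 to 0.22) and MYLIP by -0.011 ± 0.062 (-0.15 to 0.12). The blocked calls changed when a number was left out. Such fits hold fewer libraries, and the share of all tested genes called in them was not computed. Without the 3 libraries of number 1, 1 member was called higher (NR1H2) and 1 lower (LSS), and without number 4 LSS was the single fall. LSS and NR1H2 were the calls that held whichever number was left out. CYP51A1, MSMO1 and HSD17B7 were lost without number 1 alone, and MVK and SQLE without number 1 or number 4. FDPS, ABCA1 and ABCG1 were called in 1 of the 4 omissions each and DHCR7 in 0.

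With shRNA-D, LBR was the member that stood out. It held 228 ± 41.5 CPM against 349 ± 52.6 in scramble (SD, n = 4), and all 4 shRNA-D libraries lay below all 4 scramble libraries, as in 2.31% of tested genes. No member lay above scramble without overlap (1.3% of tested genes), nor did any lie apart from scramble with both hairpins (0.444% above and 0.292% below). The blocked log2 change was -0.62 ± 0.078 (edgeR adjusted p = 0.000641), and without the block -0.62 ± 0.15 (edgeR adjusted p = 0.168). It remained called in the blocked model whichever number was left out. NSDHL went from 24.2 ± 2.25 to 19.7 ± 3.22 CPM, a blocked change of -0.31 ± 0.062 (edgeR adjusted p = 0.0145, without the block 0.923). INSIG2 went from 33.4 ± 8.604 to 27.1 ± 6.602 CPM, by -0.30 ± 0.070 (edgeR adjusted p = 0.0318, without the block 0.99999). Both were lower in 4 of 4 pairs, and both calls were lost without number 1 and without number 3 (edgeR adjusted p = 0.202 and 0.155 for NSDHL, 0.239 and 0.167 for INSIG2). INSIG2 was also lost without number 4 (0.116).

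Well-known SREBP targets did not pass with shRNA-D. The blocked changes were -0.15 ± 0.056 for INSIG1 (edgeR adjusted p = 0.198), -0.13 ± 0.064 for SQLE (0.376), -0.092 ± 0.067 for HMGCS1 (0.574), -0.19 ± 0.071 for MSMO1 (0.206) and 0.0039 ± 0.077 for IDI1 (0.989). INSIG1, SQLE and MSMO1 were lower in 4 of 4 pairs. ABCG1 was higher in 4 of 4 pairs, at 0.24 ± 0.085 (edgeR adjusted p = 0.186), and ABCA1 changed by 0.10 ± 0.11 (0.737). ACAT2 and TM7SF2, among the members with the smallest p without the block, changed by -0.17 ± 0.055 and -0.18 ± 0.070 in the blocked model (0.125 and 0.225). For the mean of both hairpins LBR changed by -0.33 ± 0.066 (edgeR adjusted p = 0.0113, without the block 0.649). That call was lost without number 3 (0.107). With shRNA-B alone the blocked change of LBR was -0.037 ± 0.078 (edgeR adjusted p = 0.844), lower in 2 of 4 pairs. The change in the mean thus came from shRNA-D and was not shared by both hairpins.

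**Figure D3:**
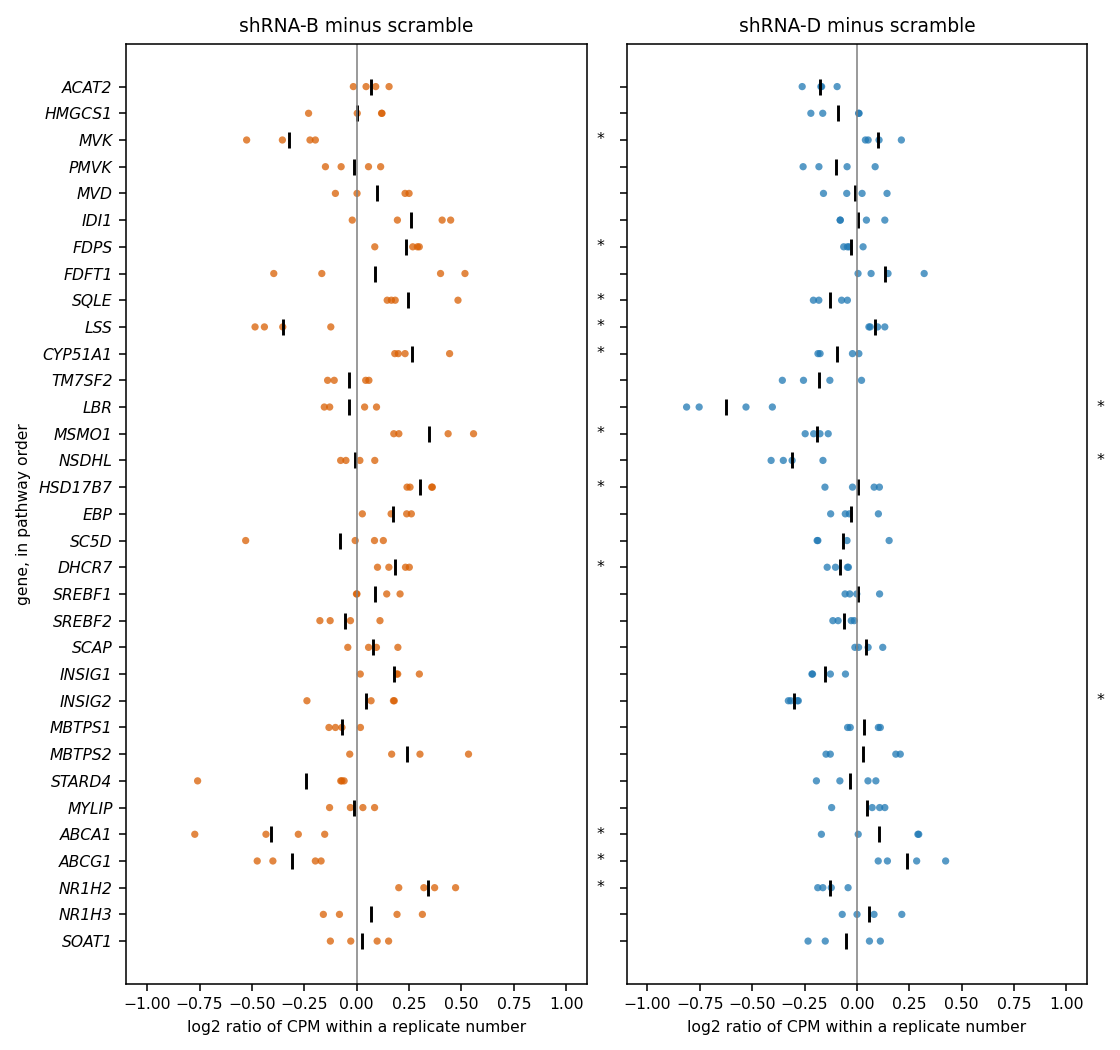
Points are the log2 ratios of CPM within each of the 4 replicate numbers, shRNA-B over scramble on the left and shRNA-D over scramble on the right; bars are their means and asterisks mark genes with an adjusted p under 0.05 in the blocked model. LBR lies below 0 in all 4 pairs with shRNA-D, and 11 genes are marked with shRNA-B against 3 with shRNA-D.

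The hairpins were then set against each other, as both had lowered SIDT2. This comparison shares its libraries with those against scramble, so a gene called in both is not independent evidence. Without the block 1 member differed, MVK, which was higher with shRNA-D (17.7 ± 0.598 CPM) than with shRNA-B (13.2 ± 0.9) by 0.43 ± 0.090 log2 (edgeR adjusted p = 0.0437), against 0.467% of tested genes called higher and 0.485% lower, 0.952% in all. Its adjusted p was 0.101 to 0.13 when any library of either hairpin other than shRNA-B replicate 2 was left out. The 4 shRNA-D libraries all lay above the 4 shRNA-B libraries, as in 2.54% of tested genes. With the block 4 members were higher with shRNA-D (5.91% of tested genes) and 14 lower (6.95%), 18 in all (12.9%). Above 10 CPM the shares of all genes were 8.02% and 16%.

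The genes lower with shRNA-D than with shRNA-B in the blocked model were 3 early enzymes (ACAT2, IDI1, FDPS), 8 late enzymes (SQLE, CYP51A1, LBR, MSMO1, NSDHL, HSD17B7, EBP, DHCR7), both INSIG genes and NR1H2. MSMO1 differed by -0.54 ± 0.072 log2 (edgeR adjusted p = 0.000373, without the block 0.599), with means of 69.9 and 102 CPM. LBR differed by -0.59 ± 0.078 (edgeR adjusted p = 0.000375, without the block 0.104) and NR1H2 by -0.47 ± 0.059 (0.000256 with and 0.203 without the block). In the same order of adjusted p values, SQLE differed by -0.37 ± 0.064 (0.00221, 0.753), CYP51A1 by -0.36 ± 0.059 (0.00164, 0.461) and INSIG1 by -0.33 ± 0.056 (0.00206, 0.922). The 14 genes were lower in 4 of 4 numbered pairs, which again is not separate from the fit that picked them.

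The other differences in that direction ran from -0.35 ± 0.070 for INSIG2 (edgeR adjusted p = 0.00537) to -0.20 ± 0.058 for EBP (0.0379). Between them lay NSDHL, HSD17B7, DHCR7, FDPS, IDI1 and ACAT2. Without overlap below shRNA-B were LBR, HSD17B7, EBP and MBTPS2, against 3.5% of tested genes, although MBTPS2 did not pass the test. Higher with shRNA-D were MVK, LSS (0.44 ± 0.062, edgeR adjusted p = 0.000619, without the block 0.186), ABCG1 (0.54 ± 0.086, adjusted p = 0.00128 and without the block 0.897) and ABCA1 (0.51 ± 0.11, 0.0087 and 0.811). The efflux pumps thus differed between hairpins in the direction opposite to most enzymes. Without the libraries of number 1 the lower genes numbered 5 and the higher ones 4, with no share of all tested genes computed for that smaller fit. Across all 4 omissions of a number, the calls of MVK, SQLE, LSS, CYP51A1, LBR, MSMO1, ABCG1 and NR1H2 remained, while EBP was called in 0 of them, IDI1 in 1, and ACAT2 and INSIG2 in 2.

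Of the 7 genes of SREBP control, INSIG1 and INSIG2 passed between hairpins in the blocked model and the other 5 did not. The difference was -0.0075 ± 0.060 for SREBF2 (95% interval -0.14 to 0.12), -0.085 ± 0.062 for SREBF1 (-0.22 to 0.049), -0.033 ± 0.054 for SCAP (-0.15 to 0.083) and 0.11 ± 0.056 for MBTPS1 (-0.014 to 0.23). MBTPS2, whose groups did not overlap, differed by -0.21 ± 0.081 (95% interval -0.39 to -0.040, edgeR adjusted p = 0.107). HMGCS1 differed by -0.096 ± 0.067 (-0.24 to 0.049) and MYLIP by 0.060 ± 0.062 (-0.075 to 0.20). The FBN1-led fibroblast markers summed to 14.6 to 16.7 CPM with shRNA-B, 24.7 to 35.8 with shRNA-D and 21.5 to 32.5 in scramble. Their part in the differences between hairpins was not tested.

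**Figure D4:**
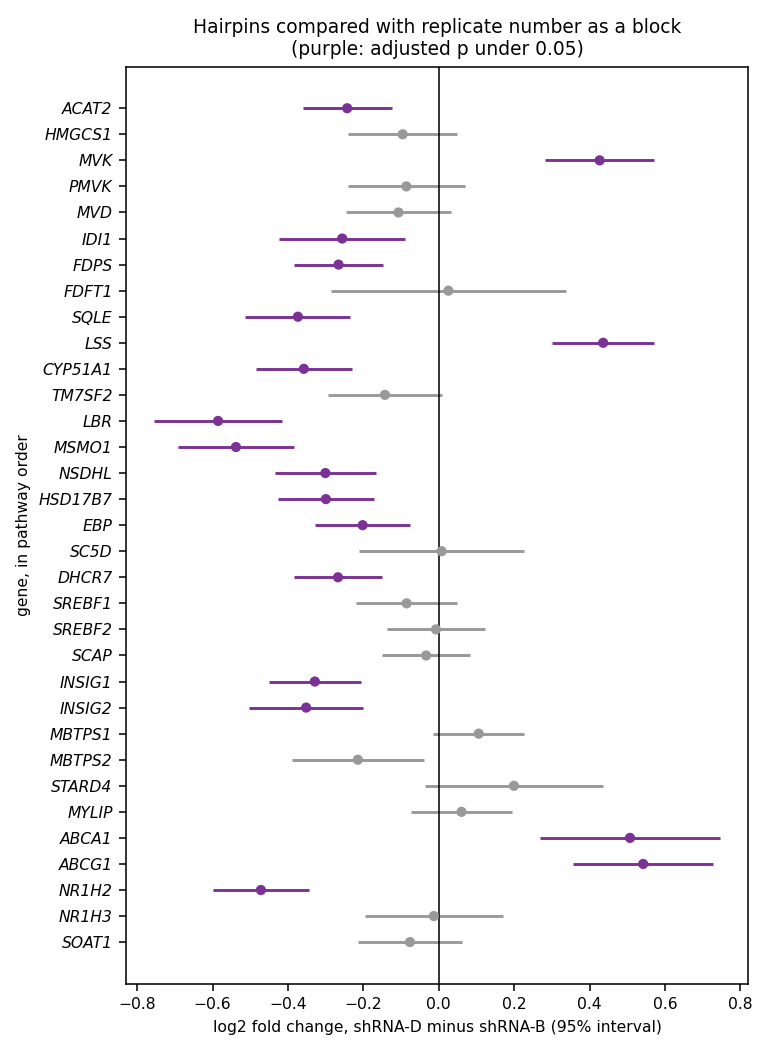
Log2 difference between shRNA-D and shRNA-B for each member with its 95% interval, from the model with replicate number as a block; purple genes had an adjusted p under 0.05. Of the 18 purple genes, 14 lie below 0, and MVK, LSS, ABCA1 and ABCG1 lie above it.

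Genes around the pathway were read from lists chosen by function. Of 12 genes of SREBP-driven fatty acid synthesis, 9 differed between numbers, and as for each list below this count stands against 47.2% of all tested genes and 65.9% of those averaging 10 CPM or more. Hairpin calls in these lists stand against other shares of all tested genes. With the block these were 9.58% with shRNA-B, 3.3% with shRNA-D and 12.9% between hairpins. Without it they were 0.876%, 0.269% and 0.952%. Above 10 CPM the blocked shares were 8.75% higher and 8.76% lower with shRNA-B. They were 1.95% and 5.06% with shRNA-D, and 8.02% and 16% between hairpins. SCD, the stearoyl-CoA desaturase, had number means of 785, 1366, 1285 and 1134 CPM and FADS1, a desaturase of longer chains, 86.3, 135, 128 and 109. With shRNA-B, 1 of the 12 fell without the block, FADS1, from 142 ± 27.4 to 57.4 ± 17.8 CPM (SD, n = 4; edgeR adjusted p = 0.00948), with all 4 shRNA-B libraries below all others, and with the block GPAM also rose. With shRNA-D 0 were called without the block, and FASN and SCD fell with it, with log2 changes of -0.28 ± 0.066 (edgeR adjusted p = 0.0356) and -0.27 ± 0.063 (0.0335). Between hairpins ACLY, ACACA, FASN and SCD were lower and FADS1 higher with shRNA-D in the blocked model. FADS1 was the call among these that also passed without the block.

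Among 14 genes of sterol traffic and lipoprotein uptake, 12 differed between numbers (47.2% of all tested genes did) and 0 were called with either hairpin without the block. With it and shRNA-B, 2 of the 14 rose, the acid lipase gene LIPA and TMEM97, against 4.04% of all tested genes. Another 2 fell, the lipoprotein receptor genes SCARB1 and VLDLR, against 5.54%. SCARB1 changed by -0.53 ± 0.067 (edgeR adjusted p = 0.000252). VLDLR fell with both hairpins in that model, with log2 changes of -0.36 ± 0.059 with shRNA-B and -0.34 ± 0.059 with shRNA-D (edgeR adjusted p = 0.00198 and 0.00643), from 19.9 CPM in scramble to 15.6 and 15.7. LRP8, another receptor of this family, had number means of 22.1, 40.2, 39.1 and 33.4 CPM.

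In the isoprenoid and dolichol branches, NUS1 and RABGGTB rose with shRNA-B in the blocked model. Of 8 genes of sterol-regulated degradation in the endoplasmic reticulum, 5 differed between numbers, a share between the 47.2% of all tested genes and the 65.9% of those averaging 10 CPM or more, and RNF139 fell with shRNA-D and the block (-0.36 ± 0.060, edgeR adjusted p = 0.00433). Of 8 other genes listed around the LXR receptors, 5 likewise differed between numbers, which is near the same background. They were LPCAT3, APOE, TTC39B, RXRA and RXRB, and whether each responds to LXR in these cells was not tested. APOE, an apolipoprotein that accepts cholesterol, had number means of 17.1, 7.29, 6.98 and 4.03 CPM, highest in number 1 and lowest in number 4 in all 3 groups, as ABCA1 and ABCG1 were. The list did not share this order. TTC39B and RXRB were lowest in number 1 in all 3 groups, with number means of 7.12, 12.6, 13.0 and 9.29 CPM for TTC39B. Those of RXRB were 0.548, 0.930, 1.04 and 0.863 CPM. TTC39B fell with each hairpin in the blocked model. Of 8 genes of esterification and oxysterols, 6 were tested, 2 differed between numbers and 0 were called against scramble. These are too few genes to set against that background, and CYP27A1 and CYP7B1 among them averaged only 0.714 and 0.156 CPM in scramble. Between hairpins, the blocked model called TMEM97, RNF139 and ERLIN2 lower and SCARB1, APOE and LCAT higher with shRNA-D, and none of these 6 genes was called without the block.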

How the data were processed

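RNA-seq libraries of HEK 293T cells were used, 4 per group. The authors deposited estimated counts per Ensembl gene; fastp and kallisto are named in the submitters' processing notes, but the sources used here do not give versions, genome build or annotation. Symbols came from a supplied table of gene names (60443 of 85298 identifiers matched). Expected counts were rounded, scaled by TMM and filtered by filterByExpr. edgeR 4.0.16 in R 4.3.3 (quasi-likelihood F-tests, robust) was fitted on all 12 libraries and 26366 genes, by group alone and, as an alternative, with replicate number as a block; the numbers were tested together in the latter. Calls used a Benjamini-Hochberg adjusted p under 0.05. DESeq2 1.42.0 was an alternative. Deviations from group means correlated with r of 0.141 to 0.619 between libraries of the same number and -0.365 to 0.280 otherwise. The ranges overlap, and the pairing by number was read from these values, not from a label. Of the 12 libraries, 11 correlated best with one of their own number, but numbers 2 and 3 were not cleanly separated. Scramble replicate 2 correlated at 0.280 with shRNA-D replicate 3 and 0.141 with shRNA-D replicate 2. Scramble replicate 3 correlated at 0.220 with shRNA-D replicate 2 and 0.192 with shRNA-D replicate 3. edgeR's common coefficient of variation between libraries was 25% by group and 12.1% once the block was added. All pairs of libraries differed by more than counting noise (chi-square per degree of freedom 26.7 to 149). The scripts were tested on simulated data. The counts of 1 neighbouring list are not reported here. Members and lists were chosen with earlier results of these data known. Values in every library were given for HMGCS1, SQLE, IDI1, INSIG1, SREBF1, SREBF2, ABCA1 and MYLIP, for each member called with or without the block, and for up to 4 members with the smallest p in each comparison, the rest by range or mean; neighbouring lists are named where called or, as chosen after their values were seen, for their number means.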

Additional observations from a re-analysis of the deposited data

Results flagged for a closer look

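In 99 sets of 4 libraries (33 genes in 3 groups), 7 held a library far from the other 3 by Dixon's criterion, which chance gives for about 1 set in 20. ABCG1 stood apart in number 1, at 12.1 CPM in scramble (nearest 4.27) and 10.6 with shRNA-B (nearest 3.80). Number 4 was low with shRNA-D for MYLIP, at 14.8 CPM (nearest 20.7), and for NR1H2, at 15.4 (nearest 19.7). MBTPS2 was high in shRNA-B replicate 3, at 95.3 CPM (nearest 78.4), and MBTPS1 in shRNA-B replicate 2, at 150.1 (nearest 133). MVK was low in shRNA-D replicate 2, at 16.8 CPM (nearest 17.9).

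MVK was the member whose change differed between the hairpins in the model without the block, with a log2 difference of 0.43 between shRNA-D and shRNA-B.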

How the results depend on the processing

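The counts of members called depended most on the replicate block, which gave 7 higher and 4 lower with shRNA-B, 3 lower with shRNA-D, 1 lower for the mean of both hairpins, and 4 higher and 14 lower between hairpins, against 0, 0, 0, 0, 1 and 0 without it. DESeq2 gave 1 lower with shRNA-B, 1 lower with shRNA-D, and 2 higher (MVK, LSS) and 1 lower (LBR) between hairpins. With no filter on low counts 1 member (LBR) was lower with shRNA-D, and between hairpins 0 were higher and 1 was lower; with only the groups compared in the fit, 0 were higher between hairpins. RLE and upper-quartile scaling left the counts of the hairpin comparisons as they were. Leaving out libraries or numbers gave 0 to 1 higher between hairpins and 16 to 27 members called between replicate numbers. Shares of all tested genes were computed for the edgeR fits with and without the block, and not for the other settings. The causes were not tested.

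The blocked counts were recomputed under alternatives chosen after seeing the data, without the shares of all tested genes. Leaving out a number gave 1 to 7 higher and 1 to 3 lower with shRNA-B, 1 to 3 lower with shRNA-D, 0 to 1 lower for the mean, and 3 to 4 higher and 5 to 13 lower between hairpins; RLE, upper-quartile scaling and DESeq2 with the block stayed within 1.5 times of each count. A separate tally set the values of named members in the alternative settings against the fit without the block. In it 645 values kept their side of the threshold, 38 passed newly, 13 no longer passed and 0 called values changed direction. Most of those that passed newly did so when the block was added. The tally therefore does not describe how stable the blocked calls were. FDFT1, ABCA1 and ABCG1 had the lowest levels of the members.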
